A study of Mus musculus with 14 samples.

Results

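The comparison of 4 with 3 weeks of age covers the first interval of a series on pubertal mouse mammary gland. It sets 3 arrays titled 4wk (A, B and C) against 3 titled 3wk (A, B and C), 6 of the 14 arrays, chosen by their titles. Every array carried RNA of whole inguinal glands (number 4) from female CD1 mice, an outbred stock, that had received no treatment. Lymph nodes were dissected away before extraction, and each RNA was a pool from at least 3 mice. Both groups carry no engineered allele and no agent, so age is the labelled difference between them. The labels give age and no date of weaning. A pool averages over its mice, and no label says whether pools shared mice. The p-values therefore speak of the spread among pools, and the number of arrays limits the precision. In a whole gland, fewer cells of a type and less RNA per cell cannot be told apart.

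Of the 22690 probe sets, 20380 name 1 gene, and the results below are given for these. A deposited value is a ratio: the signal of a probe set on an array over the median of that probe set across the 14 arrays. A ratio therefore compares arrays for 1 gene and says nothing about levels between genes. Differences are on the log2 scale, 4wk minus 3wk, with standard errors (SE) from the fit, and a gene with several probe sets was given the mean of those tested. A value was called, and is said to have risen or fallen, where the adjusted p of limma (Benjamini-Hochberg over everything tested) was below 0.05. Of 9 defining markers of the tissue, 8 were measured above the filter on low values: Krt8, Krt18 and Epcam for luminal epithelium, Krt14, Krt5 and Trp63 for basal epithelium, and Adipoq and Fabp4 for adipocytes. Plin1 was not analysed here.

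At this age the mouse mammary gland is a small tree of ducts set in a large fat pad, and ovarian hormones later drive the ducts through the pad from terminal end buds. The ducts have an inner layer of luminal cells, which include hormone-sensing cells and secretory precursors, and an outer layer of contractile basal cells resting on a basement membrane. Adipocytes make up most of the pad: they build fatty acids from glucose through acetyl-CoA carboxylase and fatty acid synthase, then lengthen and desaturate them with elongases and stearoyl-CoA desaturases.

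Between 3wk and 4wk 28 of 18482 probe sets tested were called, 0.151%, with 25 higher and 3 lower at 4wk. Of these, 26 name 1 gene, 25 genes in all, and their adjusted p ran from 0.00911 to 0.0450. By gene, 19 of 10675 were called (0.178%), 18 higher and 1 lower, and 16 of the 19 also have a called probe set. The rises included Elovl6 and the desaturases Scd1 and Scd2, the myoepithelial gene Cnn1, the luminal regulator Elf5, the laminin chain Lama1, the immunoglobulin A heavy chain Igha and the secreted protein Chil1. The falls were Wfdc1, Anxa8 and Phgdh. At an unadjusted p under 0.05 there were 1898 probe sets, 1369 higher and 529 lower. The median over all genes was 0.05, and 56.9% of genes were higher at 4wk.

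For 11.1% of all genes every 4wk array lay above every 3wk array, and for 4.81% every one lay below. In the following, such genes are said to have no overlap. These shares are the background for the counts of list members below. The number of calls rested on single arrays. Among probe sets it was 0 without 4wk A (1541 at an unadjusted p under 0.05), 7 without 4wk B, 4 without 4wk C, 6 without 3wk C, 30 without 3wk A and 29 without 3wk B, and among genes 2, 3, 3, 5, 9 and 23. Of the 28 calls, 17 were kept without 3wk A and 11 without 3wk B. A fit to the 6 compared arrays alone called 0 probe sets (1539 unadjusted) and 1 gene, Elovl6. In all, 17 alternative settings were run. Elovl6 was called by gene in each of them, Chil1 in 13 and the other 17 called genes in 3 to 9. The mean log2 ratio of the 18 hybridisation control probe sets, which report handling of the array rather than the tissue, was −0.23, 0.14 and 0.56 on the 3wk arrays and 1.10, 0.08 and 0.92 on the 4wk arrays. With that mean as a covariate 8 probe sets and 5 genes were called. Its part in the calls was not tested further.

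Array 3wk A stood apart from the other 3wk arrays in stromal and immune genes. The mean ratio of the tested T and natural killer cell genes was 0.665 on 3wk A against 1.42 and 1.44 on B and C, that of the macrophage genes 0.686 against 0.960 and 1.01, and that of skeletal muscle genes 1.53 against 0.681 and 0.847. Results for those lists are given with and without it. Where leaving out 1 array moved the median of a list clearly or turned its sign, the lowest and the highest such median stand beside it. Without it the median over all genes was 0.01.

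**Figure D1:**
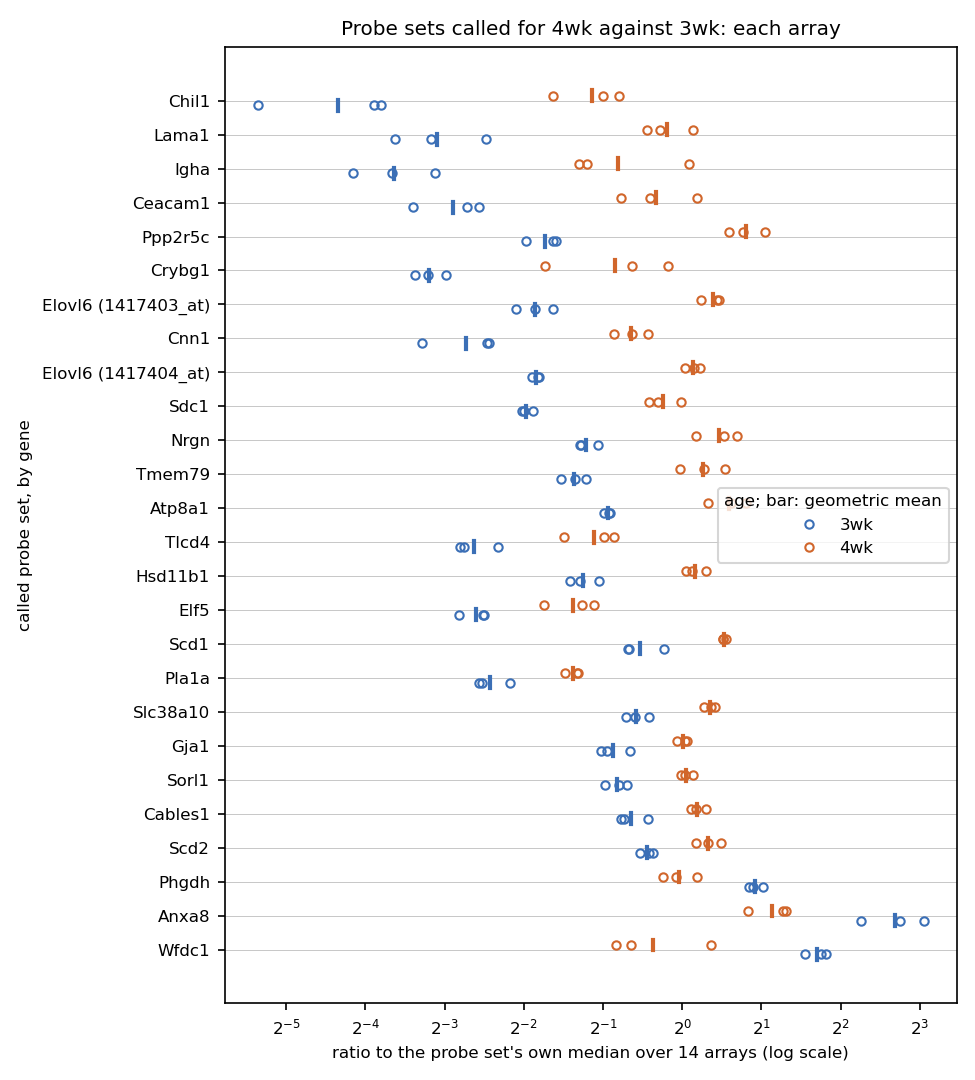
Ratio of each called probe set that names 1 gene (rows) on the 3 arrays at 3wk (blue circles) and the 3 at 4wk (orange circles), on a log scale, with a bar at the geometric mean of each age. In all 26 rows the arrays of the 2 ages are separate, and 3 rows, Phgdh, Anxa8 and Wfdc1, are higher at 3wk.

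Genes of fatty acid synthesis were higher at 4wk. All 23 tested genes of the list (26 entries, 3 not analysed here, 0 below the filter) had a positive difference, with a median of 0.57 against 0.05 over all genes, and 17 of them (73.9%) had no overlap between the ages. By gene, 2 were called, Elovl6 and Scd2, and 17 had an unadjusted p under 0.05. The mean ratio of the 23 genes was 0.810, 0.811 and 0.828 on the 3wk arrays and 1.21, 1.21 and 1.31 on the 4wk arrays, so the ages did not overlap. The list's median stayed between 0.47 and 0.62 over the alternatives.

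Elovl6, the elongase that lengthens palmitate to stearate, was the steepest of them. The first of its 2 probe sets was at 0.322, 0.275 and 0.234 on the 3wk arrays, in the order A, B, C used throughout, and at 1.38, 1.36 and 1.18 on the 4wk arrays. The second was at 0.285, 0.269 and 0.284 and then 1.17, 1.02 and 1.11. Every 4wk array lay above every 3wk array in both, by the first probe set 4.75-fold (2.25 ± 0.24, adjusted p = 0.00911) and by the second 3.94-fold (1.98 ± 0.21, adjusted p = 0.00911). As a gene Elovl6 rose by 2.11 ± 0.21 (adjusted p = 0.00630) and was called in 17 of 17 alternatives, the highest adjusted p being 0.0374. Its probe sets were not called without 4wk A, where the adjusted p was 0.0587, nor in the fit to the 6 compared arrays, where it was 0.0561.

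The stearoyl-CoA desaturases put the first double bond into these chains. Scd1 by its called probe set was at 0.625, 0.852 and 0.627 at 3wk and at 1.43, 1.47 and 1.43 at 4wk, with no overlap (1.06 ± 0.16, adjusted p = 0.0311). Its other probe set differed by 0.24 ± 0.13 (adjusted p = 0.579), so the gene mean, 0.65 ± 0.13, was not called (adjusted p = 0.0844). Scd2 had 3 probe sets with nearly equal differences, 0.77, 0.81 and 0.78, of which the first was called, and as a gene it rose from 0.787, 0.755 and 0.898 to 1.54, 1.34 and 1.32 (0.79 ± 0.12, adjusted p = 0.0359). Scd1, Scd2 and Scd3 are close paralogs, and probes of one can take signal of another.

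Upstream of chain lengthening, Acaca, the cytosolic acetyl-CoA carboxylase that commits carbon to fatty acids, was at 0.990, 0.619 and 1.01 at 3wk and 1.97, 2.10 and 2.57 at 4wk, a difference of 1.37 ± 0.26 that missed the threshold (adjusted p = 0.0735). Me1, the malic enzyme that supplies NADPH, was at 0.925, 0.857 and 0.819 and then 1.50, 1.41 and 1.34 (0.71 ± 0.14, adjusted p = 0.0849). Acly, which splits citrate into acetyl-CoA, differed by 0.57 ± 0.16 (adjusted p = 0.215) and Acss2, which makes acetyl-CoA from acetate, by 0.77 ± 0.23 (adjusted p = 0.232). In each of these 4 genes the 4wk arrays lay above all 3wk arrays. Fasn, fatty acid synthase, had a small and tight difference, from 0.997, 1.0 and 0.982 to 1.24, 1.17 and 1.25 (0.30 ± 0.12, adjusted p = 0.388). The desaturases of polyunsaturated chains differed by 0.92 ± 0.41 for Fads2, 0.73 ± 0.22 for Fads3 and 0.19 ± 0.17 for Fads1, the last with overlapping arrays.

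The list also holds regulators of these enzymes. Mlxipl, the carbohydrate-response factor ChREBP, was at 1.03, 0.966 and 0.831 at 3wk and 1.61, 1.28 and 1.26 at 4wk (0.55 ± 0.15, adjusted p = 0.190), and Thrsp, a lipogenic cofactor, differed by 0.32 ± 0.14 (adjusted p = 0.442). Srebf1, the sterol-response factor SREBP-1, overlapped between the ages at 1.04, 0.785 and 1.03 and 1.07, 1.01 and 1.30 (0.24 ± 0.18, adjusted p = 0.679). Whether enzymes and regulators differ in size of change was not tested. Tecr, the reductase that closes each round of chain lengthening, lies outside the list and rose as a gene from 0.684, 0.782 and 0.737 to 1.14, 1.11 and 1.32 (0.69 ± 0.11, adjusted p = 0.0435, called in 3 of 17 alternatives).

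The tested genes of the list had differences in 1 direction, and the 250 bases before the start of their transcripts were searched for 3 motifs on both strands: a sterol response element of SREBP proteins (TCACNCCAC), the E-box core (CACGTG), whose pairs ChREBP binds, and the CCAAT box, bound by the general factor NF-Y. The table of promoters (RefSeq, GRCm38.p6) holds 19 of the list's genes. The sterol motif was found in 1 of them, Mlxipl, and in 1.05% of the 32851 promoters of the table. The E-box core was found in 2, Elovl5 and Mlxipl, and in 6.02% of all, and CCAAT in 12, among them Fasn, Me1, Acss2 and Srebf1, and in 33.8% of all. A match describes letters only. The upstream bases of Elovl6, the steepest gene, and of the 3 genes of the list with the largest differences among those with a match are shown, with matches in capitals and no overlap between them.
Elovl6 (chr3:129532136-129532385, + strand, no match): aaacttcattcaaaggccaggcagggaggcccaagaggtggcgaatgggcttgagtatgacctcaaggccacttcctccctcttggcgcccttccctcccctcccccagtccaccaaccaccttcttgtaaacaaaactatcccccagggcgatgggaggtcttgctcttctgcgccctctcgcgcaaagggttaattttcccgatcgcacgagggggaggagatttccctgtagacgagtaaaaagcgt
Acss2 (chr2:155517793-155518042, + strand, CCAAT on the opposite strand 73 bases before the start): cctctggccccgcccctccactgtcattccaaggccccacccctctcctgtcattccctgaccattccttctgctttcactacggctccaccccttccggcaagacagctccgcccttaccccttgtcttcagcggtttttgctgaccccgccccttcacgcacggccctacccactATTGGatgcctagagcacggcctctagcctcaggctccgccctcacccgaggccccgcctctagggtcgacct
Fads3 (chr19:10041298-10041547, + strand, CCAAT at 106 and, on the opposite strand, 78): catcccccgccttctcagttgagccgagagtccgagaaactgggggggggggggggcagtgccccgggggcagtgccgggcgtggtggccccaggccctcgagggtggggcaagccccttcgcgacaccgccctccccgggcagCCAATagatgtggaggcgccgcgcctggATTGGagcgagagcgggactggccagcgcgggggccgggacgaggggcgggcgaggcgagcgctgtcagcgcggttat
Elovl5 (chr9:77917115-77917364, + strand, E-box core at 161, CCAAT on the opposite strand at 71 and 17): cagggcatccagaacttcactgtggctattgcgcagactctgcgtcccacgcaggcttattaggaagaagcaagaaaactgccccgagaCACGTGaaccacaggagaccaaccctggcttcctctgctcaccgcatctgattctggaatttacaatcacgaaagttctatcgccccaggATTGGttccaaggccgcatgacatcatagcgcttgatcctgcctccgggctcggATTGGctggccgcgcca
These 4 genes differed by 2.11, 0.77, 0.73 and 0.72, so the largest difference belongs to the promoter without a match in this window.

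**Figure D2:**
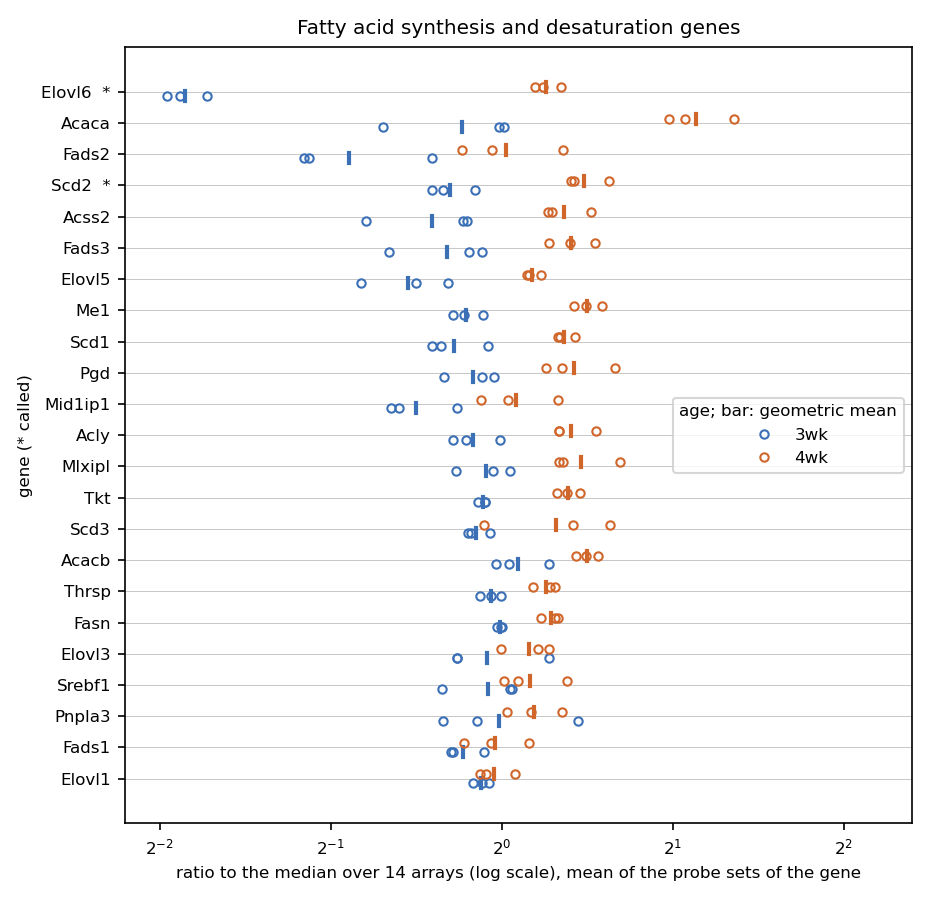
Ratio of each tested gene of fatty acid synthesis (rows, mean of its probe sets) on the arrays at 3wk (blue) and 4wk (orange), on a log scale, bars at the geometric mean of an age, stars on the 2 called genes. Elovl6 spans the widest gap, and the means at 4wk lie to the right of those at 3wk in all 23 rows.

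Glucose uptake and glycolysis, which feed carbon to fatty acids, differed in both directions. Of 23 tested genes 14 were higher and 9 lower (median 0.14, and 0.06 without 4wk C to 0.26 without 4wk A). Without overlap 9 were higher (39.1%, against 11.1% of all genes) and 3 lower (13.0%, against 4.81%). Pkm, a pyruvate kinase of the last step, rose from 0.740, 0.727 and 0.680 to 1.17, 1.13 and 1.15 (0.68 ± 0.11, adjusted p = 0.0417, called in 3 of 17 alternatives). Without overlap but not called were Aldoc, an aldolase (1.11 ± 0.24), Hk1, a hexokinase (0.69 ± 0.20), Pfkl, a phosphofructokinase (0.59 ± 0.12), Dlat of the pyruvate dehydrogenase complex (0.52 ± 0.15) and Slc2a4, the insulin-responsive glucose transporter GLUT4 (0.43 ± 0.17). Slc2a3, another glucose transporter, differed the other way by −1.10 ± 0.48, and Pdk4, the kinase that shuts pyruvate dehydrogenase in fasting, by −0.28 ± 0.33. The adjusted p of these genes ran from 0.0994 to 0.813.

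Of 19 tested genes of cholesterol synthesis and sterol uptake 18 were higher, with a median of 0.27 (0.13 without 4wk C to 0.31 without 3wk C). Without overlap 5 were higher (26.3%, against 11.1% of all genes), 6 had an unadjusted p under 0.05 and 0 were called. The 5 without overlap were Pmvk, a kinase of the mevalonate pathway (0.71 ± 0.24), and the later enzymes Lss (0.36 ± 0.15), Nsdhl (0.27 ± 0.20), Sc5d (0.51 ± 0.13) and Dhcr7 (0.66 ± 0.24). Srebf2, the regulator of the pathway, had nearly equal values at both ages, with an SE of 0.19.

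Among genes of fat storage and adipocyte identity 0 were called, and 3 of each list had an unadjusted p under 0.05. Of 25 triglyceride genes 16 were higher (median 0.09, and 0.05 without 4wk C to 0.12 without 4wk B). The 3 without overlap, all higher, made up a share near the 11.1% of all genes. They were Dgat2, which adds the last acyl chain (0.47 ± 0.12), Mgll, a lipase (0.32 ± 0.12), and Mogat2, a monoacylglycerol acyltransferase, at 0.114, 0.109 and 0.385 and then 0.913, 0.623 and 1.34 (2.44 ± 0.48, adjusted p = 0.0883). Of 21 adipocyte genes 13 were higher (median 0.05, and −0.02 without 3wk A to 0.09 without 3wk C). Without overlap 5 were higher (23.8%, against 11.1% of all genes) and 2 lower (9.52%, against 4.81%). The highest difference of the list was 0.96, that of Orm1, given below with the acute phase genes. Adipoq, adiponectin, overlapped at 1.09, 1.19 and 1.14 and 1.15, 1.06 and 0.979 (−0.11 ± 0.10, adjusted p = 0.754), as did Fabp4, the adipocyte fatty acid carrier (0.10 ± 0.15). Lep, leptin, was at 0.767, 0.708 and 0.683 and then 0.937, 0.899 and 1.21, without overlap (0.49 ± 0.24, adjusted p = 0.512), and Angptl4, an inhibitor of lipoprotein lipase, differed by 0.09 ± 0.13. Nnat, an imprinted gene of adipocyte differentiation, was the lowest of the list, at 2.78, 3.09 and 3.23 and then 0.838, 1.07 and 1.73 (−1.39 ± 0.44, adjusted p = 0.262).

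Genes of oxidative metabolism were lower in more cases than higher, by small amounts. Of 44 respiratory chain and citric acid cycle genes 33 were lower at 4wk (median −0.11, and −0.18 without 4wk C to −0.06 without 3wk B), 4 of them without overlap (9.09%, against 4.81% of all genes), 2 at an unadjusted p under 0.05 and 0 called. Cyc1, cytochrome c1, was at 2.11, 1.66 and 1.80 and then 1.24, 1.30 and 1.54 (−0.45 ± 0.14, adjusted p = 0.262). Of 32 genes of fatty acid oxidation 20 were lower and 12 higher (median −0.08, and −0.12 without 3wk C to −0.04 without 3wk B). Without overlap 4 were lower (12.5%, against 4.81% of all genes) and 3 higher (9.38%, against 11.1%). An unadjusted p under 0.05 was found for 2, and 0 were called. Eci1 (−0.45 ± 0.15) and Acaa2 (−0.35 ± 0.11) of mitochondrial beta-oxidation were lower without overlap. Differences ran from −0.45 to 1.03 over the list. Eci3, a peroxisomal enoyl-CoA isomerase outside the list, rose from 0.612, 0.512 and 0.566 to 0.928, 0.994 and 1.03 (0.81 ± 0.13, adjusted p = 0.0463, called in 3 of 17 alternatives). Ppara, the nuclear receptor of fat oxidation, had high and scattered ratios at both ages, 11.4, 5.66 and 6.77 and 7.57, 6.85 and 4.90 (−0.26 ± 0.33, adjusted p = 0.825). Cpt1b was not analysed here.

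Brown adipocyte genes were split. Of 13 tested, 7 were lower and 6 higher (median −0.26, and −0.35 without 3wk B to 0.03 without 3wk A). Without overlap 3 were lower (23.1%, against 4.81% of all genes) and 1 higher (7.69%, against 11.1%). An unadjusted p under 0.05 was found for 3, and 0 were called. Fabp3, the fatty acid carrier of muscle and brown fat, was at 12.5, 13.4 and 8.93 and then 2.73, 7.18 and 4.69, without overlap (−1.34 ± 0.34, adjusted p = 0.186), and Cox7a1, a respiratory chain subunit of the same tissues, differed by −0.62 ± 0.27. Skeletal muscle genes were highest on 3wk A (mean ratio 1.53), and their part in these values was not tested. Ucp1, the uncoupling protein, overlapped at 5.06, 3.10 and 2.05 and 2.63, 5.58 and 3.96 (0.28 ± 0.57, adjusted p = 0.904), and so did Cidea (0.01 ± 0.30).

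**Figure D3:**
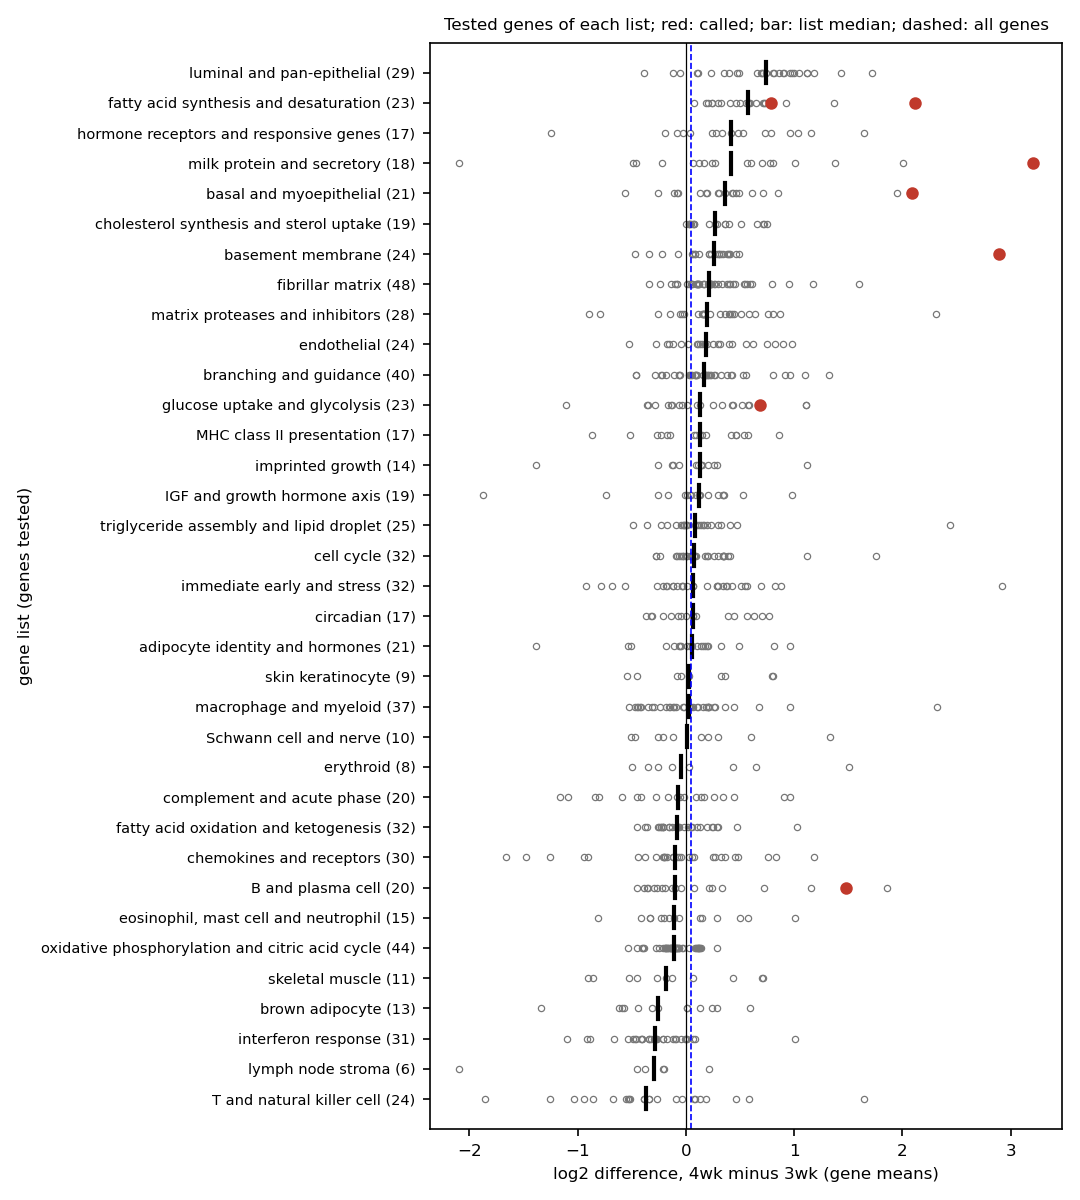
Log2 difference of every tested gene (circles) in each of 35 lists, 4wk minus 3wk, ordered by the list's median (black bar), with called genes in red and the median of all genes as a dashed line. Luminal and fatty acid synthesis genes lie farthest to the right, at medians of 0.74 and 0.57, and T and natural killer cell genes farthest to the left, at −0.37.

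Epithelial genes were higher at 4wk. Of 29 luminal and pan-epithelial genes 26 were higher, with a median of 0.74 (range over the alternatives 0.51 to 0.88), and 15 (51.7%) had no overlap. By gene 0 were called, the lowest adjusted p being 0.0735, and 15 had an unadjusted p under 0.05. The mean ratio of these genes was 0.246, 0.355 and 0.350 at 3wk and 0.506, 0.412 and 0.613 at 4wk. The ages did not overlap, with the smallest gap between 3wk B and 4wk B. All 6 values are below 1, which is the level of an array at the median of the series.

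Elf5, a transcription factor that commits luminal progenitors to secretion, rose by 1 probe set from 0.175, 0.177 and 0.142 to 0.416, 0.299 and 0.463 (1.24 ± 0.20, adjusted p = 0.0450, called in 3 of 17 alternatives). Its second probe set differed by 0.72 ± 0.45 (adjusted p = 0.632). Epcam, the epithelial adhesion molecule, was at 0.115, 0.218 and 0.138 and then 0.424, 0.302 and 0.529, with no overlap (1.43 ± 0.27, adjusted p = 0.0735). The luminal keratins were Krt18, at 0.201, 0.388 and 0.361 and 0.520, 0.463 and 0.628 (0.81 ± 0.23, adjusted p = 0.223), and Krt8, whose arrays overlapped (0.47 ± 0.34, adjusted p = 0.666). Kit, a receptor of luminal progenitors, differed by 0.96 ± 0.21, Ehf, an epithelial ETS factor, by 1.12 ± 0.33, Tspan8, a tetraspanin, by 1.0 ± 0.20 and Muc1, the apical mucin, by 1.72 ± 0.83, all without overlap.

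Among 21 basal and myoepithelial genes 16 were higher (median 0.36, and 0.29 without 3wk C to 0.43 without 4wk C). Without overlap 5 were higher (23.8%, against 11.1% of all genes), and 1 was called. Cnn1, calponin of the contractile apparatus, was at 0.103, 0.184 and 0.181 at 3wk and 0.645, 0.549 and 0.743 at 4wk, a 4.25-fold rise (2.09 ± 0.29, adjusted p = 0.0263). Krt14, the basal keratin, was at 0.582, 0.405 and 0.306 and then 0.610, 0.656 and 0.640 (0.61 ± 0.21, adjusted p = 0.307), while Krt5 (0.29 ± 0.29) and Trp63, the basal regulator p63 (−0.11 ± 0.40), overlapped. Gja1, the gap junction protein connexin 43, which basal cells and fibroblasts carry, rose by 1 probe set from 0.633, 0.518 and 0.491 to 1.02, 0.952 and 1.04 (0.89 ± 0.14, adjusted p = 0.0450). Its 5 other tested probe sets differed by 0.26 to 1.10 and were not called.

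For the hormone receptors themselves the ages overlapped. Esr1, the estrogen receptor, was at 0.593, 0.349 and 1.77 and 0.649, 1.16 and 0.461 (−0.03 ± 0.68, adjusted p = 0.994) and Pgr, the progesterone receptor, at 0.470, 0.888 and 0.388 and 1.08, 0.986 and 0.272 (0.28 ± 0.50, adjusted p = 0.888), both with wide spread. Of 17 tested genes of the list (1 below the filter) 13 were higher (median 0.42, and 0.26 without 3wk A to 0.61 without 3wk B). Without overlap 6 were higher (35.3%, against 11.1% of all genes) and 0 lower, 5 had an unadjusted p under 0.05 and 0 were called. The other 4 genes were lower, down to −1.24, with overlapping arrays. Gata3, a luminal regulator, was at 0.0825, 0.305 and 0.235 and then 0.426, 0.595 and 0.712 (1.64 ± 0.43, adjusted p = 0.188). Foxa1, the pioneer factor that opens estrogen receptor sites, differed by 1.16 ± 0.26 and Myb, a transcription factor, by 1.03 ± 0.34, both without overlap.

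Of 18 milk and secretory genes 14 were higher (median 0.42, and 0.29 without 4wk A to 0.50 without 3wk A). Without overlap 7 were higher (38.9%, against 11.1% of all genes). Chil1, a secreted chitinase-like protein, rose 9.25-fold, from 0.0672, 0.0717 and 0.0244 to 0.574, 0.323 and 0.502 (3.21 ± 0.39, adjusted p = 0.0171 for its single probe set), and was called in 14 of 17 alternatives. Its lowest 4wk array, B, was 0.323 against a highest 3wk array of 0.0717. The casein Csn2 overlapped at 0.185, 0.136 and 0.213 and 0.184, 0.192 and 0.197 (0.12 ± 0.55, adjusted p = 0.961). Csn1s1, another casein, was at 0.0191, 0.102 and 0.0593 and then 0.240, 0.127 and 0.248 (2.01 ± 0.58, adjusted p = 0.222), and Lalba, alpha-lactalbumin, differed by 1.38 ± 0.40. Ltf, lactoferrin, and Lcn2, lipocalin 2, differed by 1.01 ± 0.27 and 0.81 ± 0.19, without overlap. Wap, the whey acidic protein, differed by −0.48 ± 0.28. In all 4 genes of the list were lower, 0 of them without overlap. The lowest difference was −2.10, that of Glycam1, which lymph node vessels make too and whose spread is given below.

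Of 40 branching and guidance genes 30 were higher (median 0.17, and 0.10 without 4wk A or 4wk C to 0.19 without 4wk B), 5 without overlap in that direction (12.5%, near the 11.1% of all genes), 6 at an unadjusted p under 0.05 and 0 called. The separated ones were Sox9, a progenitor factor (1.32 ± 0.39), Tgfb3 (0.96 ± 0.31), Ptn, pleiotrophin (0.92 ± 0.27), Inhbb, an activin subunit (0.81 ± 0.21), and the receptor Erbb2 (0.53 ± 0.13). Of 32 cell cycle genes tested 23 were higher (median 0.08, and −0.14 without 3wk A to 0.23 without 3wk C). Without overlap 1 was higher (3.1%, below the 11.1% of all genes), 1 had an unadjusted p under 0.05 and 0 were called. Mki67, the proliferation antigen, was at 0.572, 1.28 and 0.950 and 1.23, 0.783 and 1.10 (0.20 ± 0.45, adjusted p = 0.916), and Top2a, a topoisomerase of dividing cells, differed by 0.35 ± 0.23. The sign of the cell cycle median thus turned without array 3wk A. It also turned with all arrays kept, to −0.04 with array weights and −0.06 with the hybridisation controls as a covariate.

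Matrix genes were higher in small steps. Of 48 fibrillar matrix genes 42 were higher, with a median of 0.22, 13 had no overlap (27.1%), 10 had an unadjusted p under 0.05 and 0 were called. The mean ratio was 0.719, 0.952 and 0.927 at 3wk and 1.04, 0.971 and 1.10 at 4wk. The list's median was 0.08 without 3wk A, the lowest array, and 0.25 without 3wk C. The main fibrillar collagens had small differences: Col1a1 by 0.22 ± 0.21 and Col3a1 by 0.16 ± 0.12. Fn1, fibronectin, was at 0.546, 0.462 and 0.718 and then 0.909, 0.719 and 0.859 (0.54 ± 0.22, adjusted p = 0.409). Emilin1, an elastic fibre protein (1.60 ± 0.46), Col11a1 (0.80 ± 0.33), Col16a1 (0.61 ± 0.26) and Col8a1 (0.59 ± 0.26) had no overlap.

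Of 24 basement membrane genes 20 were higher (median 0.26, and 0.18 without 3wk C to 0.28 without 3wk B). Without overlap 9 were higher (37.5%, against 11.1% of all genes) and 1 lower (4.17%, against 4.81%), and 1 was called. Lama1, the laminin chain of embryonic and some epithelial basement membranes, was at 0.180, 0.111 and 0.0811 at 3wk and 1.10, 0.824 and 0.733 at 4wk, and rose by 2.89 ± 0.42, adjusted p = 0.0263. Its level, where a step is the smallest unit in which an array's signal was written, was 13.0 to 25.9 steps at 3wk and 97.0 to 151 at 4wk, all below the 200 steps at which probe sets low on every array were left out, so it passed through later ages and the size of its change is uncertain. The gene was called in 5 of the 16 alternatives that tested it. Col4a1, the main network collagen, overlapped (0.23 ± 0.14, adjusted p = 0.589).

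Among 28 proteases and inhibitors tested (3 below the filter) 21 were higher (median 0.19, and 0.13 without 3wk A to 0.27 without 3wk B). An unadjusted p under 0.05 was found for 7, and 0 were called. Mmp2, gelatinase A, was at 0.516, 0.636 and 0.529 and then 0.778, 0.654 and 0.858 (0.44 ± 0.16, adjusted p = 0.332), and Mmp14, its membrane-bound activator, differed by 0.81 ± 0.28, both without overlap. Mmp3, stromelysin, differed by −0.05 ± 0.24 and Timp1, an inhibitor, by 0.64 ± 0.37, both overlapping. Timp4, the inhibitor of adipose tissue, was lower at 4wk, 2.37, 1.63 and 1.90 and then 0.961, 1.03 and 1.16 (−0.89 ± 0.21, adjusted p = 0.144). Wfdc1, a secreted protease inhibitor outside the list, fell from 3.36, 2.92 and 3.52 to 0.562, 0.638 and 1.29 (−2.07 ± 0.31, adjusted p = 0.0311), with a level of 277 to 396 steps at 3wk and 54.0 to 120 at 4wk, which is below 200.

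**Figure D4:**
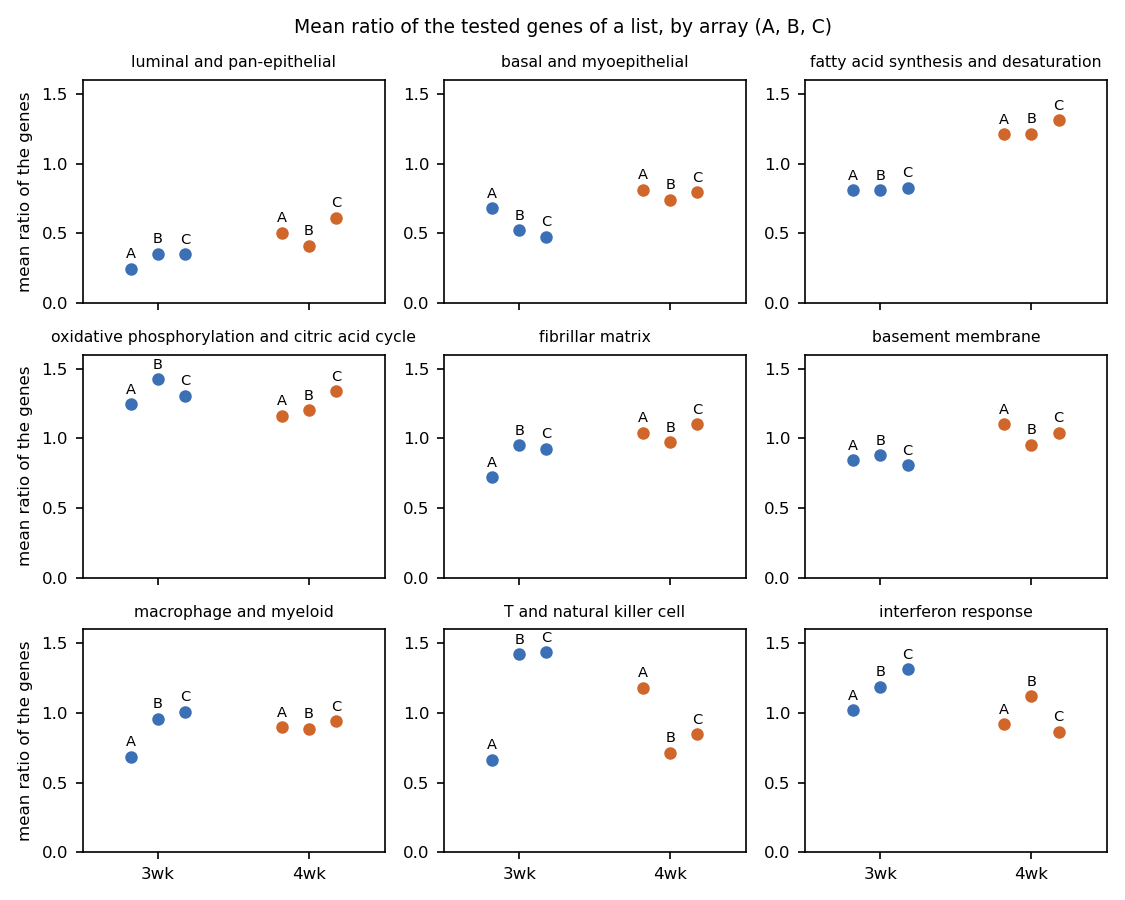
Mean ratio of the tested genes of 9 lists on each array (letters A, B and C) at 3wk (blue) and 4wk (orange), on linear axes from 0. Fatty acid synthesis genes lie between 0.810 and 0.828 at 3wk and between 1.21 and 1.31 at 4wk, whereas T and natural killer cell genes at 3wk spread from 0.665 for A to 1.44 for C.

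Immune genes differed in both directions, and in the 8 lists of immune cells and signals 1 gene was called. Macrophage genes were balanced, 19 of 37 higher and 18 lower (median 0.03, and −0.16 without 3wk A to 0.11 without 3wk B; −0.01 after quantile normalization), with 4 at an unadjusted p under 0.05. Csf1r, their growth factor receptor, overlapped at 0.767, 1.09 and 1.04 and 1.06, 0.979 and 1.04 (0.10 ± 0.14, adjusted p = 0.847), as did Cd68 (0.20 ± 0.23) and Lyz2, lysozyme (0.22 ± 0.27). Cd163, a scavenger receptor of resident macrophages, and Lyve1, shared with lymphatic vessels, were lower without overlap (−0.45 ± 0.19 and −0.53 ± 0.31). Such genes made up 5.41% of the macrophage list, near the 4.81% of all genes, and 1 gene (2.70%, against 11.1%) was higher without overlap. Differences ran from −0.53 to 2.32 over that list. Of 17 genes of MHC class II presentation 11 were higher (median 0.13, and 0.01 without 3wk A to 0.21 without 3wk C), 2 of them at an unadjusted p under 0.05, H2-Aa (0.53 ± 0.24) and H2-Eb1 (0.86 ± 0.32), and 0 called. Cd74, the invariant chain, was higher by 0.57 ± 0.27.

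T and natural killer cell genes had the lowest median of the 35 lists, −0.37, with 17 of 24 lower and 3 at an unadjusted p under 0.05, but none of the 17 was without overlap. The 1 member higher without overlap (4.17%, against 11.1% of all genes) was Gata3, given above as a luminal regulator. Gata3 had the list's highest difference, 1.64, and its lowest adjusted p, 0.188, and is thus among the 3. Cd3e, a chain of the T cell receptor complex, was at 0.434, 1.54 and 3.02 and 1.75, 0.328 and 2.0 (−0.27 ± 0.79, adjusted p = 0.937). The median was −0.59 without 3wk A to −0.19 without 4wk B, the lowest 4wk array. Cd79a, of the B cell receptor, overlapped (−0.19 ± 0.31). Glycam1, made by lymph node vessels and by secretory epithelium, ranged from 0.142 on 4wk B to 18.9 on 3wk B, and 5 of 6 tested lymph node genes were lower at 4wk (median −0.29, and −0.44 without 4wk A to −0.08 without 4wk B). The part of remaining lymph node tissue in the lymphocyte genes was not tested.

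Of 20 B and plasma cell genes 12 were lower (median −0.10, and −0.23 without 4wk A to 0.14 without 4wk B). Without overlap 4 were higher (20%, against 11.1% of all genes) and 1 lower (5%, near the 4.81%), and 1, Sdc1, was called. Igha, the heavy chain of immunoglobulin A, rose 7.15-fold by 1 probe set, from 0.0791, 0.0563 and 0.115 to 0.404, 0.435 and 1.07 (2.84 ± 0.42, adjusted p = 0.0311). Its other probe sets differed by 2.13 and 0.61 (adjusted p = 0.150 and 0.591), and as a gene Igha was not called (1.86 ± 0.37, adjusted p = 0.0886). Jchain, which joins immunoglobulin A into dimers, was at 0.359, 0.30 and 0.168 and then 0.455, 0.379 and 1.16, without overlap (1.15 ± 0.42, adjusted p = 0.338). In both genes array 4wk C was the highest of the 6. Immunoglobulin genes share sequence, so these probe sets can take signal of related transcripts.

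Sdc1, syndecan-1, a heparan sulfate proteoglycan of epithelial cells and of plasma cells, was the called member of that list. Its called probe set was at 0.251, 0.247 and 0.270 at 3wk and 0.807, 0.986 and 0.751 at 4wk (1.72 ± 0.23, adjusted p = 0.0245), and the gene rose by 1.48 ± 0.20 (adjusted p = 0.0263). Its 4 probe sets differed by 0.60 to 2.77.

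Interferon-responsive genes were mostly lower: 26 of 31 tested (median −0.29, and −0.19 to −0.34 when 1 array was left out), 7 without overlap (22.6%, against 4.81% of all genes), 6 at an unadjusted p under 0.05 and 0 called. Iigp1, an immunity-related GTPase, was at 1.59, 2.02 and 1.59 and then 1.05, 0.948 and 0.763 (−0.92 ± 0.26, adjusted p = 0.216), and Irf7, a regulator of type I interferon, differed by −0.89 ± 0.27. The interferon-induced chemokines Cxcl10 (−1.66 ± 0.93) and Cxcl11 (−1.26 ± 0.71) had wide errors and no overlap. Those chemokine genes that were higher without overlap were Cxcl15 (1.18 ± 0.30), Cxcl14 (0.84 ± 0.23) and the receptor Cxcr4 (0.33 ± 0.24). Of 30 chemokine genes tested (9 below the filter) 18 were lower (median −0.10, and −0.13 without 4wk B to 0.01 without 3wk C), 2 at an unadjusted p under 0.05 and 0 called. Without overlap 3 chemokine genes were higher (10%, near the 11.1% of all genes) and 2 lower (6.67%, against 4.81%). Of 20 complement and acute phase genes 12 were lower (median −0.07, and −0.27 without 3wk A to 0.02 without 3wk B), 5 at an unadjusted p under 0.05 and 0 called, with Saa1, serum amyloid A (−1.16 ± 0.34), Hp, haptoglobin (−1.08 ± 0.31), and Cfi, complement factor I (−0.59 ± 0.16), lower without overlap, while Orm1, an acute phase protein made by adipocytes too, was higher (0.96 ± 0.17, adjusted p = 0.0639). Without overlap 4 complement and acute phase genes were lower (20%, against 4.81% of all genes) and 1 higher (5%, against 11.1%). Of 15 eosinophil, mast cell and neutrophil genes tested (6 below the filter) 9 were lower (median −0.11, and −0.18 without 4wk B to −0.01 without 3wk C).

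Other genes with calls belong to none of these groups. Hsd11b1, the enzyme that regenerates active glucocorticoid in fat and stroma, was at 0.481, 0.376 and 0.408 and then 1.23, 1.03 and 1.09 (1.41 ± 0.19, adjusted p = 0.0249). Atp8a1, a phospholipid flippase, was at 0.527, 0.531 and 0.503 and then 1.54, 1.25 and 1.75 (1.53 ± 0.19, adjusted p = 0.0171), and its other probe set was higher too, by 0.92. Slc38a10, a member of an amino acid transporter family, was at 0.613, 0.745 and 0.659 and then 1.21, 1.29 and 1.34 (0.93 ± 0.12, adjusted p = 0.0245), and 5 further probe sets were higher by 0.04 to 1.38. In all 3 genes the ages had no overlap. Hsd11b1 had a level of 76.9 to 105 steps at 3wk and 219 to 255 at 4wk.

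Further rises were in genes of varied function. Nrgn, neurogranin, a calmodulin-binding protein best known from neurons, was at 0.477, 0.413 and 0.408 and then 1.13, 1.44 and 1.62 (1.68 ± 0.24, adjusted p = 0.0309). Its level was 99.0 to 122 steps at 3wk, which is below 200, and 274 to 388 at 4wk. Tmem79, a membrane protein, was at 0.345, 0.431 and 0.392 and then 0.984, 1.21 and 1.46 (1.63 ± 0.24, adjusted p = 0.0311). Crybg1, a crystallin-domain protein, was at 0.0961, 0.108 and 0.126 and then 0.881, 0.642 and 0.30 (2.34 ± 0.36, adjusted p = 0.0348), with 4wk C nearest to the 3wk arrays. Ceacam1, an adhesion molecule of epithelial and endothelial cells, was at 0.152, 0.169 and 0.0951 and then 1.14, 0.757 and 0.583 (2.56 ± 0.37, adjusted p = 0.0309), but 6 other probe sets of the gene differed by 0.12 to 1.11 with none called. Ppp2r5c, a regulatory subunit of protein phosphatase 2A, rose by 1 probe set from 0.323, 0.330 and 0.254 to 2.06, 1.50 and 1.71 (2.54 ± 0.34, adjusted p = 0.0245), whereas its 5 other probe sets lay between −0.55 and 0.50. For Ceacam1 and Ppp2r5c the call therefore stands for 1 probe set and not for the gene.

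The remaining rises were called both by probe set and by gene. Sorl1, a sorting receptor, rose by 1.0 ± 0.15 (adjusted p = 0.0263), Pla1a, a phospholipase, by 1.05 ± 0.16 (adjusted p = 0.0263), Cables1, a binding partner of cyclin-dependent kinases, by 0.84 ± 0.13 (adjusted p = 0.0359) and Tlcd4, a TLC domain protein, by 1.51 ± 0.25 (adjusted p = 0.0417). None of the 4 had overlap. They were called by gene in 7, 7, 6 and 4 of the 17 alternatives.

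Anxa8, an annexin, fell by 1 probe set from 4.76, 8.28 and 6.74 to 1.77, 2.42 and 2.48 (−1.55 ± 0.25, adjusted p = 0.0450), a 2.92-fold fall, and its second probe set was lower by a like amount (−1.31 ± 0.33, adjusted p = 0.175). Phgdh, the first enzyme of serine synthesis, fell by 1 probe set from 2.02, 1.79 and 1.85 to 0.844, 0.948 and 1.14 (−0.96 ± 0.15, adjusted p = 0.0311), and its 3 other tested probe sets were lower by −0.52 to −1.45 without a call. All 4 Phgdh probe sets carry the suffix that marks probes shared with other transcripts.

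Markers of other cells were measured beside these groups. Of 24 endothelial genes 18 were higher (median 0.18, and 0.13 without 3wk C to 0.28 without 3wk A), 6 at an unadjusted p under 0.05 and 0 called. Without overlap 5 were higher (20.8%, against 11.1% of all genes), among them Cldn5 (0.56 ± 0.19) and Tie1 (0.98 ± 0.38), and 1 lower (4.17%, against 4.81%). Of 20 skeletal muscle genes 9 were below the filter and 11 tested, of which 7 were lower (median −0.18, and −0.40 without 3wk B to −0.05 without 3wk A), with Acta1, skeletal actin, at 7.35 on 3wk A and at 0.136 to 1.27 on the other 5 arrays. Skin keratinocyte genes were 5 higher of 9 (median 0.03, and −0.04 without 3wk B to 0.46 without 4wk C), nerve genes 5 of 10 (median 0.01, and −0.10 without 3wk B to 0.06 without 4wk B) and erythroid genes 4 of 8 (median −0.05, and −0.19 without 3wk A to 0.06 without 3wk C). The part of these cells in the results above was not tested.

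Immediate early and stress genes, which respond to handling, differed in both directions. Of 32, 11 had an unadjusted p under 0.05, against 1165 of 10675 genes, and 0 were called. Without overlap 8 were higher (25.0%, against 11.1% of all genes) and 3 lower (9.38%, against 4.81%), with a median of 0.07 (0.0002 without 3wk A to 0.15 without 3wk C). Maff had the highest value (2.92 ± 0.52, adjusted p = 0.0703), with Fos at 0.55 ± 0.23 and Hspa1b, a heat shock protein, at 0.83 ± 0.21. Those lower without overlap were Btg2 (−0.56 ± 0.22), Hspb1 (−0.26 ± 0.11) and Klf6 (−0.21 ± 0.18). The part of handling in the results above was not tested. The median of 17 circadian genes was 0.06 (−0.02 without 4wk A to 0.10 without 3wk A), with 1 at an unadjusted p under 0.05 and 0 called. Among growth genes the arrays of Igf1 overlapped, with nearly equal means at both ages and an SE of 0.14, and Igf2 was lower without overlap, 1.46, 1.31 and 1.34 and then 1.06, 1.23 and 1.15 (−0.26 ± 0.16, adjusted p = 0.618). Imprinted genes had a median of 0.13 (0.08 without 3wk C to 0.18 without 4wk C) and genes of the insulin-like growth factor axis one of 0.12 (0.04 without 3wk A to 0.15 without 3wk B). The 5' to 3' log2 ratio of the actin control probe sets, a sign of RNA integrity, was 0.07 ± 0.12 (SD, n = 3) at 3wk and 0.20 ± 0.10 at 4wk, and that of pyruvate carboxylase −0.09 ± 0.51 and 0.33 ± 0.21. Both ranges overlapped between the ages, and their part in the calls was not tested.

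The later ages show where the first week stood in the whole course. Elovl6 (first probe set) had a mean ratio of 0.277 ± 0.0440 (SD, n = 3) at 3wk and 1.31 ± 0.107 at 4wk, and then 0.963, 0.899 and 1.20 at 5wk (n = 2), 6wk and 7wk. Scd1 (called probe set) went from 0.701 to 1.44, then 1.0, 0.776 and 1.43, and Acaca as a gene from 0.873 to 2.21, 0.640, 0.239 and 1.50. In all 3 the mean at 4wk was the highest of the 5 ages. Epithelial genes had higher means later: Elf5 (called probe set) had means of 0.165, 0.393, 1.12, 1.53 and 1.21, and Chil1 of 0.0544, 0.466, 1.17, 1.13 and 2.44. Anxa8 went on down, from 2.22 at 4wk to 0.745 at 5wk, and Wfdc1 was high again at 6wk, at 2.28. Levels at later ages are given as a description. The pyruvate carboxylase 5' to 3' log2 ratio was −1.25 and −0.66 on the 5wk arrays and −2.78, −2.51 and −1.81 on the 6wk arrays. On the 7wk arrays it was 0.76, 0.90 and 0.79. The part of RNA integrity in the later values was not tested.

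**Figure D5:**
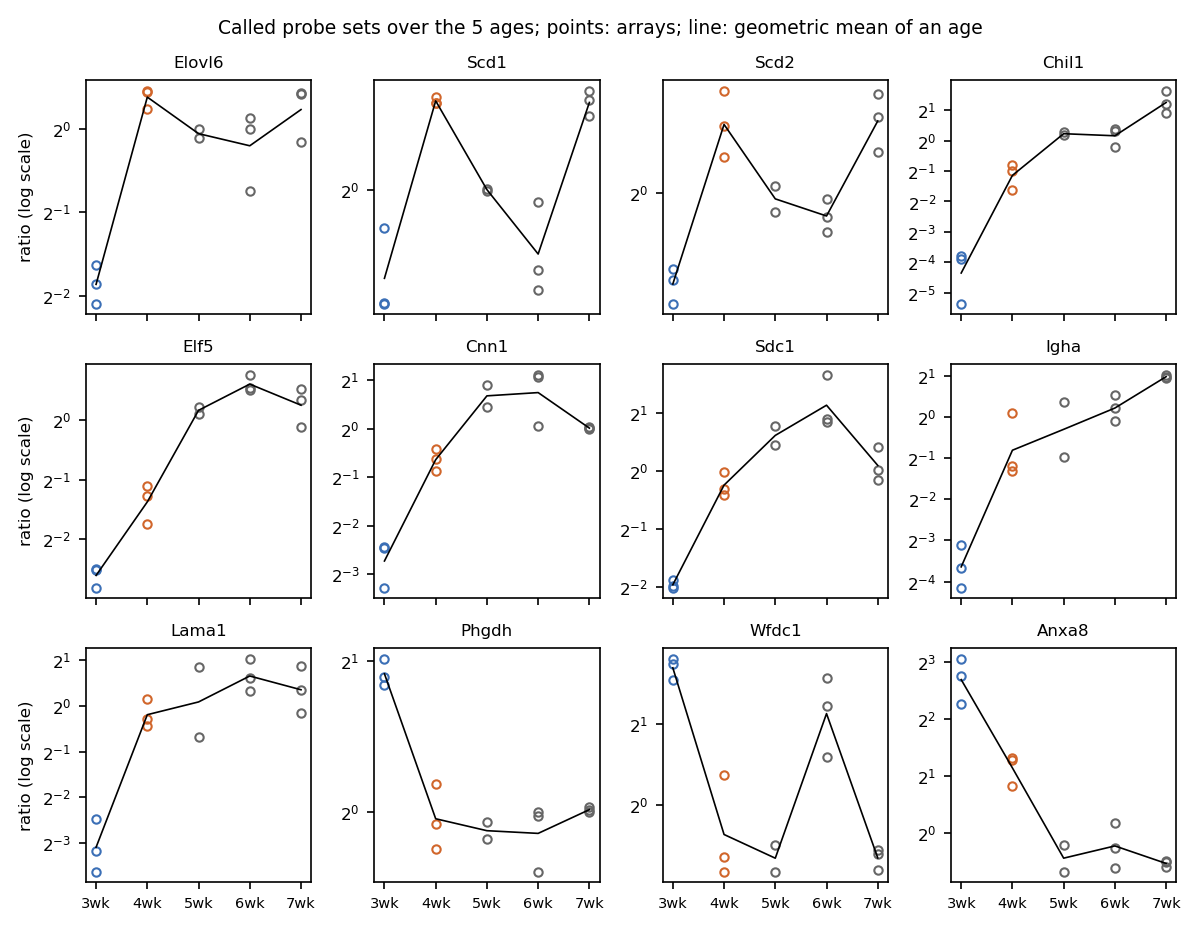
Ratio of 12 called probe sets (panels) on each array at the 5 ages, on log axes that differ between panels, with 3wk in blue, 4wk in orange, later ages in grey and a line through the geometric means. Elovl6, Scd1 and Scd2 have higher means at 4wk than at 5wk and 6wk, while Chil1, Elf5 and Igha have higher means at 5wk, 6wk and 7wk than at 4wk.

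The first step was set against the last one, 6wk to 7wk, which shares no arrays with it. The pyruvate carboxylase 5' to 3' log2 ratios given above were −1.81 or lower at 6wk and 0.76 or higher at 7wk. The part of RNA integrity in the last step was not tested. The test of the difference between the steps called 4 of 18482 probe sets (0.0216%) and 0 of 10675 genes, while 2319 and 1335 had an unadjusted p under 0.05. Sdc1 (the same probe set as above) rose in the first step by 1.72 and had a last step of −1.04, a difference of 2.76 ± 0.32 (adjusted p = 0.0380). Scd2 by the third of its probe sets had steps of 0.78 and 2.95, of which the last was the larger, a difference of −2.18 ± 0.29 (adjusted p = 0.0457). Its mean ratio was 0.197 at 6wk, when that of the first was 0.926. Cd28, a T cell costimulatory receptor, had steps of −0.53 and 2.32 (difference −2.85 ± 0.35, adjusted p = 0.0380). The remaining one is a probe set with no gene name. For Elovl6 the difference of the steps was 1.81 ± 0.33 and 1.67 ± 0.29, and for Cnn1 2.82 ± 0.42, none past the threshold (adjusted p = 0.0814 for Elovl6 and 0.0716 for Cnn1). The count of 4 was 0 without 4wk A (1971 unadjusted), 2 without 3wk A, 3wk B or 4wk B, and 2 without 6wk A and B. In the 4 settings with a count of 2 none of the 4 probe sets was kept.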

How the data were processed

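RNA of 14 pools of mouse mammary gland was hybridised to Affymetrix arrays, 3 each at 3wk, 4wk, 6wk and 7wk and 2 at 5wk. The deposited values are linear ratios of a probe set's signal to its median over the 14 arrays, as the values themselves show. For the scanner software and the scaling between arrays the sources used here name none. In the 337 probe sets with a median below 0.98 the ratios of an array were whole multiples of a step (100% within 0.1), and the step differed up to 1.70 times between arrays, so each array had also been divided by a factor of its own. From the steps, levels were recovered for 8637 probe sets (38.1%), up to a median of about 384 steps, and for the others signal over background is unknown.

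Probe sets below 200 recovered steps on all arrays or all but 1 (4144, of which 3479 name 1 gene) and 64 controls were left out. A probe set that passed through 1 age alone is one that differs, so counts over tested members describe those members. Log2 ratios, without offset or further normalization (array medians differed by at most 0.0938 log2), were fitted with limma 3.58.1 in R 4.3.3, with age as a factor over all 14 arrays, for 18482 probe sets (16901 naming 1 gene) and for 10675 genes of 12393. A gene's value was the mean of its tested probe sets. The threshold was 0.05 after Benjamini-Hochberg adjustment. Tables were made with Python 3.11.15, numpy 2.4.6 and pandas 2.3.3, and figures with matplotlib 3.10.9. The fit was tested on simulated data. Gene names come from the platform annotation, of which 691 probe sets name several genes and 1555 none, and 20351 matched RefSeq GRCm38.p6 by gene ID with 0 changed symbols. Of 967 entries in 35 gene lists, 867 were on the array.

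The comparison, the lists and the tests were chosen with earlier results of these data known. Genes named were the called probe sets with the largest changes or smallest adjusted p among those without overlap, up to 4 called members of a list, and a set of 45 genes named whatever their values, 1 of which is not reported here. Other list members, mostly those with large differences, and genes called by gene alone were chosen after their values were seen. Alternatives covered the arrays fitted, the replicate letter as a block, the filter, scaling, an offset, moderation, array weights, the hybridisation controls as a covariate, leaving out arrays, and each probe set alone.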

Additional observations from a re-analysis of the deposited data

Results flagged for a closer look

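The step from 3wk to 4wk and the step from 6wk to 7wk differed by a test of the difference itself (limma, adjusted over 18482 probe sets) for 4 probe sets. For Sdc1, a proteoglycan of epithelial and plasma cells, the difference of the steps was 2.76, with ratios of 0.251, 0.247 and 0.270 on the 3wk arrays and 0.807, 0.986 and 0.751 on the 4wk arrays. For Scd2, a desaturase, by the third of its probe sets, it was −2.18, and the arrays of the first step were at 0.832, 0.817 and 1.06 and then 1.58, 1.6 and 1.45. For Cd28, a receptor of T cells, it was −2.85, with 1.09, 1.11 and 0.738 and then 0.864, 0.637 and 0.541. For a probe set that the annotation leaves unnamed it was 2.09, with 0.364, 0.426 and 0.553 and then 1.24, 1.14 and 1.65. None of the 4 was kept without 3wk A, nor when both 6wk A and 6wk B, whose actin 5' to 3' ratios were lowest, were left out. On 6wk C, which stayed in, the pyruvate carboxylase 5' to 3' log2 ratio was low too, at −1.81. The part of RNA integrity in these 4 results was not tested.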

How the results depend on the processing

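Counts of calls for probe sets, genes and the difference of steps were 28, 19 and 4. They were 0, 1 and 0 in a fit to the compared arrays alone (1539 and 2222 probe sets at an unadjusted p under 0.05 by limma), 9, 12 and 1 with no filter, 57, 46 and 38 with a stricter filter on 1000 recovered steps, 8, 2 and 4 after quantile normalization, 17, 12 and 4 with an offset of 0.1, 31, 19 and 9 with array weights, 8, 5 and 0 with the hybridisation controls as a covariate (2072 unadjusted for the steps), and 19, 8 and 2 without 6wk A and B. Leaving out 1 array gave 0 to 30, 2 to 23 and 0 to 6. Median centring gave 25, 16 and 4 and robust moderation 28, 19 and 4. The stricter filter tests fewer probe sets, 14022, and 24 of the 28 calls were kept in its 57. Other causes were not tested.

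With the replicate letter as a block, the counts were 9, 5 and 0 (2415 unadjusted for the steps). The labels do not say whether the letters pair the arrays. Correlations of the deviations of same-lettered 3wk and 4wk arrays from their age means were 0.03 for A, −0.07 for B and 0.07 for C. They cover all tested probe sets together and cannot settle whether same-lettered arrays share a batch.

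Among the values of 87 single genes or probe sets under the alternatives, 1051 kept direction and side of the threshold, 438 kept direction and were no longer called, 7 were newly called, and none that was called changed sign. In 19 genes that were not called the sign changed. The 3 pools a group and, for most probe sets, an unknown signal over background limit the precision. The medians of circadian, macrophage and Schwann cell genes changed sign with the scaling (−0.02 and −0.01 after quantile normalization for circadian and macrophage genes, −0.01 after median centring for Schwann cell genes).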
